A study of Mus musculus with 30 samples.

Results

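The transcripts described here are those of the tumor necrosis factor (TNF) superfamily and the nuclear factor kappa B (NF-kB) pathway in mouse brain microglia. They were taken by gene symbol: every transcript of the TPM table whose symbol begins with Tnfsf, Tnfrsf, Tnfaip or Nfkb, the numbered Traf genes, Rel and Rela, and Fas, Ltb and Ikbkb, with Tnfsf8 left out. The rule gave 49 of 14225 transcripts, which carry 45 gene symbols. They are 7 ligand, 18 receptor, 5 TRAF adaptor, 6 kinase and NF-kB subunit, 6 inhibitor of kappa B (IkB) and 7 TNF-induced protein transcripts. Symbols of the rule without a transcript in the table, such as Cd40, Relb, Chuk, Ikbkg and Traf2, were not analysed here. Levels are given as TPM, a transcript abundance scaled by transcript length, so that they can be set side by side between genes.

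Ligands of the TNF superfamily are trimeric membrane or secreted proteins that cluster their receptors. Receptors without a death domain recruit TRAF adaptors, which lead to the kinase IKKbeta (Ikbkb) and to degradation of the IkB proteins that hold NF-kB in the cytosol. NF-kB dimers of Rela, Rel, Nfkb1 and Nfkb2 then enter the nucleus and induce cytokines, chemokines and their own inhibitors, among them Nfkbia and the ubiquitin editor Tnfaip3 (A20), and in microglia this pathway is known for inflammatory gene induction.

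RNA was measured in 30 libraries of CD11b+ cells isolated with magnetic beads from whole brain of C57BL/6J mice, 3 libraries for each of 10 groups. Saline and MIA offspring, whose dams had received saline or, for maternal immune activation (MIA), the double-stranded RNA mimic poly(I:C), were taken at embryonic day 17 (E17) and postnatal days 7, 20 and 60 (P7, P20, P60). At P60 there were 4 groups: Saline + CTRL and MIA + CTRL on control chow, and Saline + MG-REP and MIA + MG-REP, which ate chow with the CSF1R inhibitor PLX5622, which depletes microglia, and then returned to control chow so that microglia repopulated the brain. A library was made from 1 litter at E17, from 3 pooled brains at P7 and from 1 brain at P20 and P60, so the spread between libraries is not of the same kind at each age. The MG-REP libraries hold the cells present after repopulation, whose origin the RNA does not give.

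A transcript was called when its adjusted p-value (limma on log2(TPM + 1), adjusted by Benjamini-Hochberg over all 14225 transcripts) was under 0.05, and "rose" and "fell" are kept for called transcripts. Values in parentheses after a pair of groups are log2 fold changes (group means of log2(TPM + 1) subtracted, ± standard error, 3 libraries per group), a scale that understates changes of transcripts near 0 TPM. All 6 microglia markers used, such as Tmem119 and P2ry12, were present in every group, and their summed level was 25446 to 36590.2 TPM in Saline + CTRL, 18104 to 19898 in Saline + MG-REP and 28078 to 31192 in MIA + MG-REP. Of these 6, 5 were called lower in Saline + MG-REP than in Saline + CTRL and none higher (median log2 fold change -0.95). None was called between MIA + MG-REP and MIA + CTRL. Whether members that fell in Saline + MG-REP went with these markers was not tested. Saline + MG-REP replicate 2 stood apart with 5052 TPM of 8 monocyte and neutrophil markers (of 9 listed), against 91.0 and 350.4 in the other libraries of that group and 730.1 to 862 in Saline + CTRL. The summed level of 7 border macrophage markers (of 8 listed) was 688 to 1321 TPM in Saline + MG-REP, 443 to 595 in Saline + CTRL and 273 to 409 in MIA + MG-REP. Pf4 made up the higher sum. The other 6 summed to 419.8, 265.8 and 281.8 TPM in Saline + MG-REP and 439.1, 353.7 and 320.8 TPM in Saline + CTRL. Of the 7, 1 (Pf4) was called higher in Saline + MG-REP and 2 (Cd209f and Cd163) lower. The 5 measured T, NK and B cell markers summed to between 6.83 and 21.9 TPM at P60, and 7 endothelial transcripts to 283 to 591 TPM in Saline + MG-REP and 754 to 1202 TPM in Saline + CTRL. In bulk RNA, fewer cells of a type and less RNA per cell cannot be told apart.

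Xist, expressed by female cells, was 124.1, 0.29 and 0.28 TPM in Saline + CTRL, 139.9, 0.14 and 0.20 in MIA + CTRL, 164.8, 169.0 and 160.7 in Saline + MG-REP and 174.3, 163.0 and 159.1 in MIA + MG-REP. Only replicate 1 of each CTRL group thus held Xist at the level of the MG-REP libraries. Where a call between MG-REP and CTRL was lost with log2 Xist as a covariate, that is stated beside it.

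The pathway was represented from ligand to nuclear factor, with the inhibitors most abundant. Nfkbia (IkB alpha) had the highest mean over the 30 libraries, 2254 TPM, followed by Nfkbid, a nuclear IkB protein (IkBNS), at 611 TPM. Tnfrsf1a and Tnfrsf1b, both receptors of TNF, had means of 325 and 239 TPM, Tnfrsf21 (DR6) 209, Rela 264, Nfkb1 194 and Rel 171 TPM. The highest ligand was Tnfsf9, at 115 TPM. In all, 10 transcripts had a mean over 100 TPM, 24 a mean over 10 and 4 a mean under 1 TPM, namely Tnfrsf13c, Traf3, Tnfrsf8 and Traf6. Both transcripts of Nfkb2, Nfkbib, Tnfaip3 and Tnfrsf25 share exons with the other transcript of the same gene, so how their reads were divided is uncertain. The deposited table places each transcript in 1 of 5 expression modules. The immature microglia module (IM) held 19 members, or 38.8% of members against 32.9% of all transcripts. The repopulated adult module (REP-AM) held 7 (14.3% against 7.97%) and the MIA immature module (MIA-IM) 6 (12.2% against 19.8%). The adult module (AM) held 10 (20.4% against 23.0%) and the juvenile module (JM) 7 (14.3% against 16.3%).

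**Figure D1:**
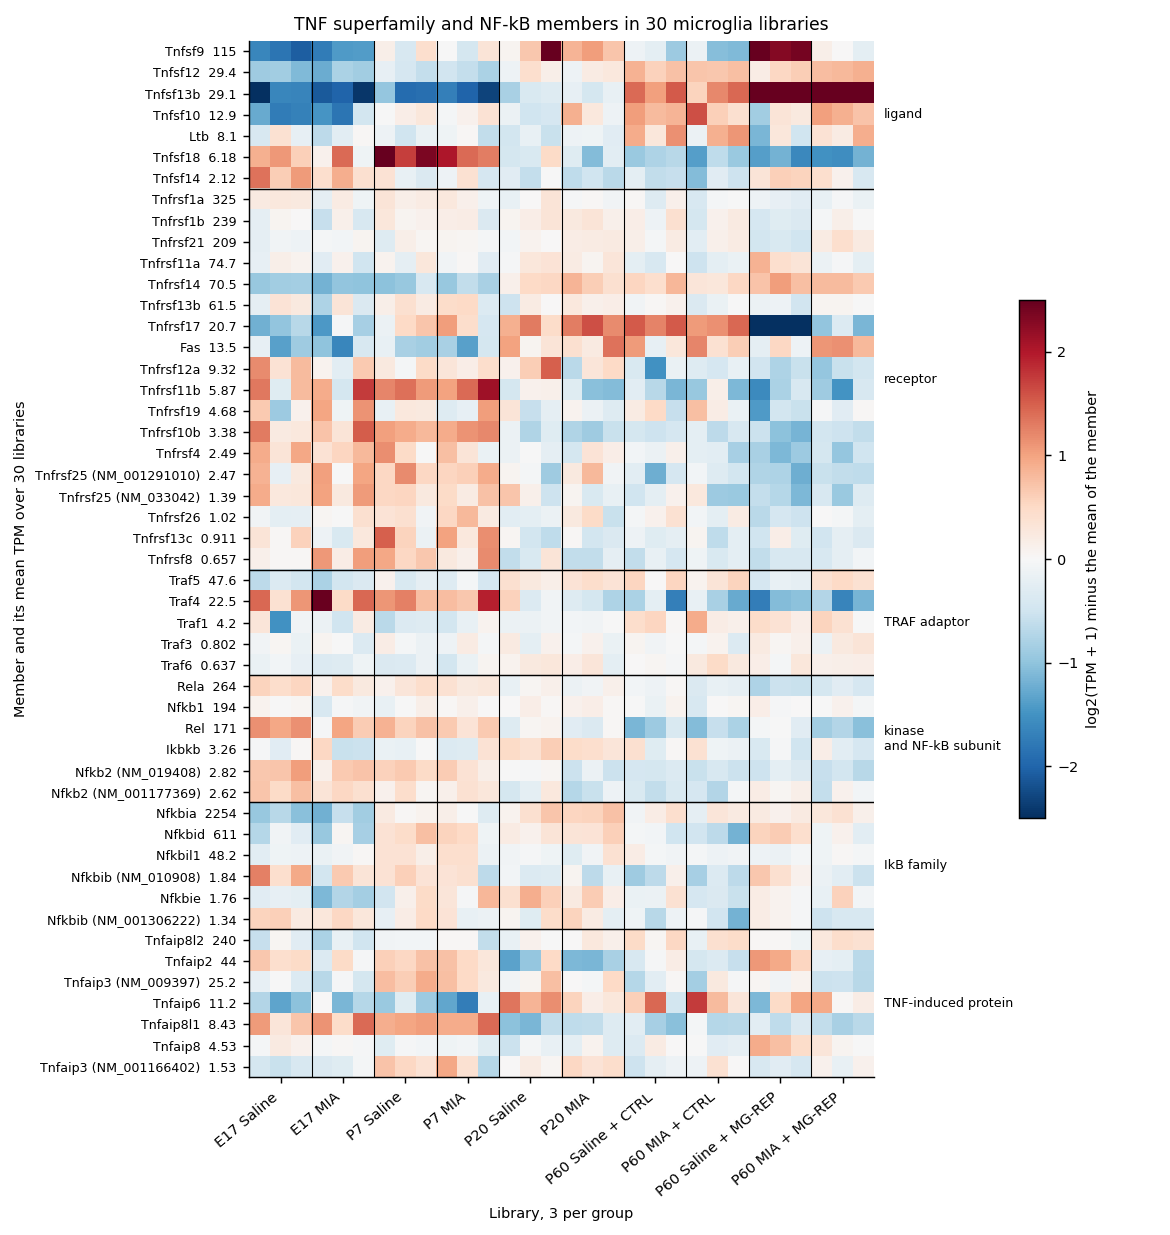
Level of the 49 transcripts (rows, grouped by role, with the mean TPM over 30 libraries beside the name) in the 30 libraries (columns, 3 per group), as log2(TPM + 1) minus the mean of the transcript, red above and blue below it, with colors ending at plus and minus 2.5. Tnfsf9 and Tnfsf13b are at the red end and Tnfrsf17 at the blue end in Saline + MG-REP, and the lowest Tnfsf13b levels are at E17 and P7.

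From P7 to P20, 20 members were called in each set of offspring, as described below. At P60, the most calls lay between MG-REP and CTRL microglia of Saline offspring. Of the 49 transcripts, 19 were called (38.8%), 10 higher and 9 lower in MG-REP, where 26.7% of all transcripts were called. The median log2 fold change was -0.08 over the members and -0.14 over all transcripts. The ligands Tnfsf9 and Tnfsf13b rose most and the receptor Tnfrsf17 fell most. Leaving out Saline + MG-REP replicate 1 lowered the count to 12, leaving out replicate 2, the library with monocyte and neutrophil markers, gave 14, and a fit of only the compared groups gave 11. Rela, Tnfrsf11a, Tnfrsf17, Tnfsf13b, Tnfsf14 and Tnfsf9 were called under every alternative and with any 1 library left out, and each of the other 13 lost its call in at least 1 of them. With the summed markers of other brain cells (neuron, oligodendrocyte, astrocyte, endothelial and choroid plexus) as a covariate 17 of the members were called. The part of the border macrophage markers in these differences was not tested.

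Among the 7 ligands, 3 rose and 2 fell. Tnfsf9 (chr17:57105287-57107758, GRCm38.p6), the ligand of the T cell costimulatory receptor CD137, was at 64.6, 59.7 and 37.3 TPM in Saline + CTRL and 632, 351 and 377 TPM in Saline + MG-REP. The groups did not overlap, and the mean was 8.41 times higher after repopulation (3.04 ± 0.41, adjusted p = 3.71e-06). Tnfsf13b (BAFF, a survival factor of B cells; chr8:10006229-10036000) was at 31.6, 23.98 and 34.2 TPM in Saline + CTRL and 158, 112 and 92.5 TPM in Saline + MG-REP, again without overlap, with a mean ratio of 4.04 (1.96 ± 0.29, adjusted p = 1.57e-05). For both ligands replicate 1 was the highest of the Saline + MG-REP libraries. In Saline + CTRL replicate 1, which held Xist, Tnfsf9 was at 64.6 TPM and Tnfsf13b at 31.6 TPM, and both stayed called with the Xist covariate.

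Tnfsf14 (LIGHT), which lies close to Tnfsf9 on chromosome 17, was low in all P60 groups. It was at 1.43, 0.88 and 0.91 TPM in Saline + CTRL and 2.56, 3.35 and 3.22 TPM in Saline + MG-REP, and rose (0.97 ± 0.26, adjusted p = 0.00683). The ligands that fell were Ltb (lymphotoxin beta), from 14.9, 9.3 and 17.5 TPM to 2.84, 9.2 and 5 TPM (-1.23 ± 0.33, adjusted p = 0.00722), and Tnfsf10 (TRAIL, which can trigger cell death), from 23.3, 19.5 and 20.2 TPM to 5.51, 13.8 and 12.9 TPM (-0.99 ± 0.34, adjusted p = 0.031). Neither overlapped, and both were lowest in replicate 1. Ltb was not called with the Xist covariate (adjusted p = 0.111), nor Tnfsf10 with the other-cell marker covariate (adjusted p = 0.0609). Without Saline + MG-REP replicate 1 neither was called (Ltb -0.89, adjusted p = 0.0805, and Tnfsf10 -0.61, adjusted p = 0.258), and Tnfsf10 was also lost when any 1 Saline + CTRL library was left out (adjusted p of 0.0536 to 0.0982). The remaining ligands were not called: Tnfsf12 (TWEAK) had a log2 fold change of -0.29 (adjusted p = 0.177) and Tnfsf18 (GITR ligand) of -0.58 (adjusted p = 0.249).

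Of the 18 receptor transcripts, 1 rose and 5 fell. Tnfrsf17 (BCMA, a receptor of BAFF known from plasma cells; chr16:11313232-11320074) was at 43.2, 35.2 and 43.4 TPM in Saline + CTRL and 0, 1.68 and 1.35 TPM in Saline + MG-REP, with replicate 1 listed at 0 (-4.49 ± 0.38, adjusted p = 2.60e-09). The groups were far apart, and the fold change ranged from -5.99 to -4.05 over the alternatives. The B cell genes Cd79a and Cd79b were at 2.90 TPM or less in every P60 library. The other receptors of BAFF were not called: Tnfrsf13b (TACI) had 56.7, 61.2 and 65.1 TPM in Saline + CTRL and 54.5, 54.8 and 43.05 TPM in Saline + MG-REP (-0.27 ± 0.23, adjusted p = 0.436), and Tnfrsf13c (BAFF receptor) stayed at 1.00 TPM or less in both groups. The BAFF ligand and Tnfrsf17 thus differed in direction, with the ligand up and Tnfrsf17 down, while Tnfrsf13b and Tnfrsf13c were not called.

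Tnfrsf21 (DR6), a death domain receptor, was at 229.6, 199 and 240.3 TPM in Saline + CTRL and 151, 159 and 147 TPM in Saline + MG-REP (-0.54 ± 0.11, adjusted p = 5.89e-04), and lost its call under median-ratio scaling (adjusted p = 0.0646). Tnfrsf1b (TNFR2) fell from 263, 215 and 310.1 TPM to 175, 192 and 182 TPM (-0.50 ± 0.18, adjusted p = 0.0353), and was not called with the Xist covariate (adjusted p = 0.304) or when any 1 library other than Saline + CTRL replicate 2 was left out (adjusted p of 0.0508 to 0.158). In contrast, the other TNF receptor, Tnfrsf1a, was at 330.5, 257 and 352 TPM and 295, 280.4 and 263 TPM, and its difference was not called (-0.15 ± 0.13, adjusted p = 0.456). Tnfrsf4 (OX40, -0.92) and Tnfrsf26 (-0.68) fell at levels of 2.52 TPM or less. Tnfrsf26 was lost under the Xist covariate (adjusted p = 0.102), without Saline + CTRL replicate 3 (0.0796) and without Saline + MG-REP replicate 1 (0.0772), and Tnfrsf4 without Saline + CTRL replicate 3 (0.0528) or Saline + MG-REP replicate 2 (0.0520). The receptor that rose was Tnfrsf11a (RANK), from 61.3, 55.4 and 73.2 TPM to 135, 97.9 and 91.7 TPM (0.75 ± 0.17, adjusted p = 0.00153). The 12 receptor transcripts not called included Fas, at 24.8, 9.81 and 14.1 TPM and 9.65, 16.9 and 10.3 TPM (-0.32 ± 0.39, adjusted p = 0.597), and Tnfrsf14 (HVEM, the LIGHT receptor), at 90.98, 83.8 and 111 TPM and 102, 129 and 105 TPM (0.24 ± 0.15, adjusted p = 0.28).

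Inside the cell, 1 of 5 TRAF adaptors was called. Traf5, which carries signals from OX40, CD30 and related receptors, fell from 66.99, 45.9 and 67.01 TPM to 33.98, 40 and 38.9 TPM (-0.64 ± 0.15, adjusted p = 0.00275), and lost its call under median-ratio scaling (adjusted p = 0.0590). Traf6, which also serves Toll-like receptors, stayed under 1 TPM (0.12 ± 0.14, adjusted p = 0.573).

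The NF-kB subunits moved in opposite directions. Rela (p65) fell from 244, 234 and 262 TPM to 149, 177 and 173 TPM (-0.57 ± 0.11, adjusted p = 2.25e-04), whereas Rel (c-Rel, which induces Il12b) rose from 68.5, 80.1 and 116 TPM to 147, 150.0 and 125 TPM (0.70 ± 0.20, adjusted p = 0.0116). Neither overlapped between the groups. Rel was not called without Saline + CTRL replicate 1 (adjusted p = 0.0865). Nfkb1 was at 193, 173 and 207 TPM and 216, 189.9 and 194 TPM (0.07 ± 0.11, adjusted p = 0.713). Of the Nfkb2 transcripts, Nfkb2 (NM_001177369) rose from 1.66, 1.26 and 1.67 TPM to 2.97, 2.59 and 2.87 TPM (0.59 ± 0.21, adjusted p = 0.0394), though it was not called when any 1 of the 6 libraries was left out (adjusted p of 0.0551 to 0.133) or with the Xist covariate (0.146), and Nfkb2 (NM_019408) was not called (0.03 ± 0.17, adjusted p = 0.922). The kinase Ikbkb stayed between 1.93 and 4.46 TPM (-0.35 ± 0.26, adjusted p = 0.359).

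Of 6 IkB transcripts, 2 rose and none fell. Nfkbid was at 554, 549.6 and 408 TPM in Saline + CTRL and 846, 895 and 776 TPM in Saline + MG-REP (0.75 ± 0.22, adjusted p = 0.0142). The groups did not overlap, but the call was lost without Saline + CTRL replicate 3 (adjusted p = 0.0773) and with the Xist covariate (adjusted p = 0.208). Nfkbib (NM_010908), which encodes IkB beta, rose with overlapping groups, from 0.43, 0.67 and 1.88 TPM to 3.24, 2.5 and 1.86 TPM (0.88 ± 0.31, adjusted p = 0.0358), and was not called without replicate 1 or 2 of either group (adjusted p of 0.0700 to 0.179). Nfkbia, in contrast, had nearly the same mean in each group, 2432 ± 438 and 2422 ± 121 TPM (mean ± SD, n = 3; 0.01 ± 0.18, adjusted p = 0.982).

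Among the 7 TNF-induced transcripts, Tnfaip2 rose from 29.8, 39.1 and 45.5 TPM to 86.2, 77.6 and 58.3 TPM (0.94 ± 0.29, adjusted p = 0.0193) and Tnfaip8, an inhibitor of apoptosis, from 3.27, 5.23 and 4.4 TPM to 9.22, 8.08 and 6.42 TPM (0.75 ± 0.18, adjusted p = 0.00266). The Saline + MG-REP libraries lay above every Saline + CTRL library for both genes. Tnfaip2 was not called without Saline + CTRL replicate 1 (adjusted p = 0.1), Saline + MG-REP replicate 1 (0.0962) or Saline + MG-REP replicate 2 (0.0520). Tnfaip3, the A20 editor that shuts NF-kB signalling off, was not called in either transcript, with Tnfaip3 (NM_009397) at 14.1, 19.8 and 24.5 TPM and 24.9, 22.5 and 25.4 TPM (0.33 ± 0.25, adjusted p = 0.371). Tnfaip8l2 (TIPE2), Tnfaip8l1 and Tnfaip6 were not called either.

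**Figure D2:**
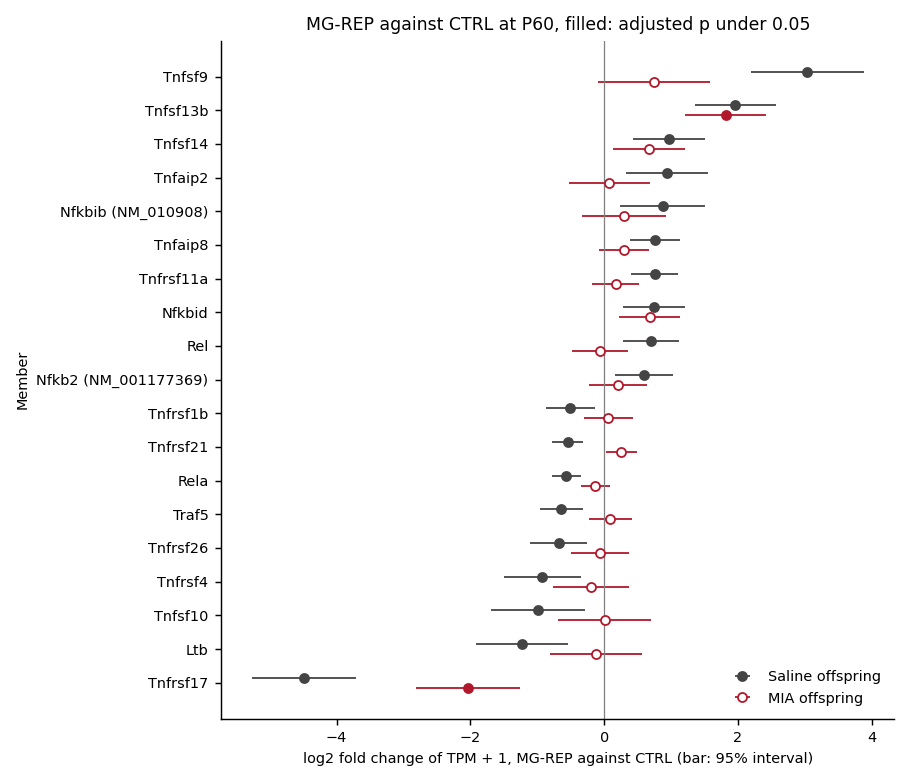
Log2 fold change of TPM + 1, MG-REP against CTRL at P60, in Saline (gray) and MIA (red) offspring for the 19 members called in Saline offspring, with bars for the 95% interval of each value and filled points for an adjusted p under 0.05. In MIA offspring Tnfsf13b (1.81) and Tnfrsf17 (-2.03) are filled, and each of the 19 red points lies nearer to 0 than the gray point of the same member.

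In MIA offspring, the same comparison called 2 of the 49 members (4.08%), against 0.555% of all transcripts. Tnfsf13b rose from 17.03, 26.99 and 31.9 TPM in MIA + CTRL to 94.1, 92.4 and 80.3 TPM in MIA + MG-REP (1.81 ± 0.29, adjusted p = 0.00135), against 1.96 in Saline offspring. Tnfrsf17 fell from 31.2, 32.8 and 40.3 TPM to 6.78, 11.2 and 5.97 TPM (-2.03 ± 0.38, adjusted p = 0.00615). The groups did not overlap for either gene. Tnfsf13b was called under every alternative, whereas Tnfrsf17 was not called without MIA + MG-REP replicate 1 (adjusted p = 0.0510) or replicate 3 (adjusted p = 0.0548), with a pseudocount of 0.1 (adjusted p = 0.239) or with the Xist covariate (adjusted p = 0.0913). These 2 members were also called in Saline offspring, in the same directions, and are 10.5% of the 19 called there and 100% of those called in MIA offspring. Of the 19, 14 had the same sign in MIA offspring. At an unadjusted p under 0.05, 7 members and 882 of all 14225 transcripts differed between MIA + MG-REP and MIA + CTRL. Tnfsf9, the ligand that rose most in Saline offspring, was at 64.1, 33.4 and 32.3 TPM in MIA + CTRL and 78.7, 71.3 and 59.95 TPM in MIA + MG-REP, where it was not called (0.74 ± 0.41, adjusted p = 0.908).

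The difference of the MG-REP effect between MIA and Saline offspring was tested as an interaction. It was called for 4 members (8.16%), 1 negative and 3 positive, with 10.5% of all transcripts called, so the members' share lay near the background. The rise of Tnfsf9 was smaller in MIA offspring (-2.29 ± 0.58, adjusted p = 0.0105), and the fall of Tnfrsf17 was also smaller there (2.46 ± 0.53, adjusted p = 0.00328). Tnfrsf21 (0.80 ± 0.16, adjusted p = 0.00128) and Traf5 (0.73 ± 0.22, adjusted p = 0.0304) fell in Saline offspring but were, in MIA offspring, at 173, 226 and 239 TPM on CTRL and 238, 276 and 242 TPM on MG-REP for Tnfrsf21, and at 49.1, 57.9 and 67.8 and 59.9, 65.5 and 59.7 TPM for Traf5. Tnfrsf17, Tnfrsf21 and Tnfsf9 were called under every alternative and with any 1 library left out. Traf5 lost its call under median-ratio scaling (adjusted p = 0.147), quantile normalization (0.130) and a fit of only the compared groups (0.0723), and without Saline + CTRL replicate 1 or 3, MIA + CTRL replicate 1 or 2, Saline + MG-REP replicate 1 or MIA + MG-REP replicate 2 (0.0565 to 0.0921). For Tnfsf13b the interaction was -0.14 with a 95% interval of -1.0 to 0.71, for Rel -0.77 (-1.36 to -0.18, adjusted p = 0.0933) and for Rela 0.44 (0.13 to 0.74, adjusted p = 0.0632).

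**Figure D3:**
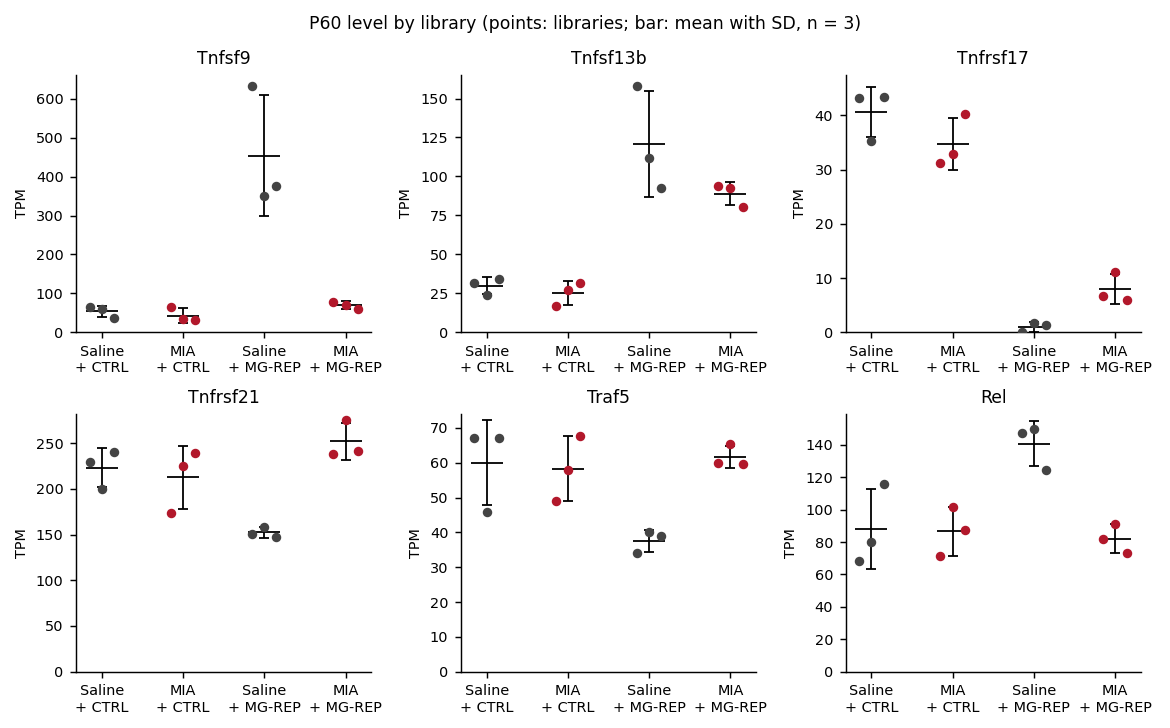
TPM of 6 members in the 12 libraries of P60 (points), with the mean and SD of each group (n = 3). The Saline + MG-REP libraries stand apart from the other 3 groups for Tnfsf9, Tnfrsf21, Traf5 and Rel, while Tnfsf13b is high and Tnfrsf17 low in both MG-REP groups.

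Compared directly, MIA + MG-REP and Saline + MG-REP microglia differed in 11 members (22.4%), 5 higher and 6 lower in MIA + MG-REP, with 22.0% of all transcripts called. This comparison shares libraries with those above. Tnfsf9 was 78.7, 71.3 and 59.95 TPM in MIA + MG-REP and 632, 351 and 377 TPM in Saline + MG-REP (-2.64 ± 0.41, adjusted p = 3.98e-05). Lower in MIA + MG-REP were also Tnfaip2 (-1.23), Rel (-0.77), Tnfrsf11a (-0.68), Nfkbid (-0.63) and Tnfaip8 (-0.59), and for Rel the levels were 82.1, 91.4 and 72.9 TPM against 147, 150.0 and 125 TPM (-0.77 ± 0.20, adjusted p = 0.00728). Higher in MIA + MG-REP were Tnfrsf17 (2.24 ± 0.38, adjusted p = 1.08e-04), Tnfrsf21 (0.72 ± 0.11, adjusted p = 3.66e-05), Tnfsf10 (0.98), Ltb (0.94) and Traf5 (0.70). Of these 11 members, only Ltb had overlapping groups. Over all 49 members, called or not, 23 did not overlap. The share over all transcripts was not computed, so this count says nothing particular to the members. The count of called members was 6 without Saline + MG-REP replicate 1 and 7 without MIA + MG-REP replicate 2 or replicate 3. Rel, Tnfaip2, Tnfrsf17, Tnfrsf21, Tnfsf9 and Traf5 were called throughout. Of the others, Tnfrsf11a was lost without Saline + MG-REP replicate 1 (adjusted p = 0.0606), Nfkbid when any 1 of the 6 libraries was left out (0.0512 to 0.15), Ltb when any but Saline + MG-REP replicate 2 was left out (0.0514 to 0.318), Tnfsf10 without Saline + MG-REP replicate 1 or any 1 MIA + MG-REP library (0.06 to 0.314) and Tnfaip8 without replicate 1 or 2 of Saline + MG-REP or replicate 2 or 3 of MIA + MG-REP (0.0514 to 0.126).

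The genes around the members were taken from 4 lists, chosen with earlier results of these data known. Of 27 adaptor and kinase transcripts, none rose and 3 fell (11.1%, where 26.7% of all transcripts were called) in Saline + MG-REP against Saline + CTRL: Cflar (cFLIP, an inhibitor of caspase 8; -0.85), Map3k14 (NIK, the kinase of the noncanonical NF-kB route; -0.70) and the death domain adaptor Fadd (-0.47). In the interaction, Cflar (1.07) and Map3k14 (0.95) were called as higher. They are 7.41% of the list against 10.5% of all transcripts. Map3k14 kept both calls under every alternative. The fall of Cflar was not called with quantile normalization (adjusted p = 0.127), in a fit of only the compared groups (0.0664), with the Xist covariate (0.0886) or without Saline + CTRL replicate 1 (0.0579). It was also not called without replicate 3 of that group (0.05002). Its interaction was lost under 6 of the 9 alternatives other than leaving out a library (adjusted p of 0.0503 to 0.189) and without 10 of the 12 libraries in turn (0.0634 to 0.129). Fadd was lost under median-ratio scaling (0.183), quantile normalization (0.226), the fit of only the compared groups (0.101) and without Saline + CTRL replicate 1 or any 1 Saline + MG-REP library (0.0523 to 0.164). Of 20 transcripts of brakes and ubiquitin editors, Tnip3, an A20-binding inhibitor (2.22 ± 0.30, adjusted p = 4.96e-06), Zc3h12a (regnase 1, which degrades cytokine mRNA; 0.88) and Nkiras2 (0.42) rose and Usp21 (-0.59) fell, 20% of the list. Nkiras2 was not called with the Xist covariate (adjusted p = 0.0815), the other-cell marker covariate (0.0929) or the replicate number as a block (0.0826). It was also lost with quantile normalization (0.0588), in the fit of only the compared groups (0.237) or without Saline + MG-REP replicate 1 or any 1 Saline + CTRL library (0.0777 to 0.396). Tnip3 was at 1.74, 2.48 and 0.97 TPM in Saline + CTRL, 22.3, 8.88 and 7.26 TPM in Saline + MG-REP and 2.51, 1.49 and 1.54 TPM in MIA + MG-REP. None of the 20 and none of the 27 were called between MIA + MG-REP and MIA + CTRL, where 0.555% of all transcripts were called.

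Of 27 transcripts of textbook NF-kB target genes (31 symbols listed, of which Tnf and Birc3 are also in another list), 17 rose and 1, Zfp36 (-0.56), fell in Saline + MG-REP. That is 66.7% called, against 26.7% of all transcripts. The median log2 fold change was 1.55, against -0.08 over the members and -0.14 over all transcripts. The list was chosen with earlier results of these data known, so these shares are a description and not an independent test. Without Saline + MG-REP replicate 2, the library with monocyte and neutrophil markers, 15 rose and none fell, with the other-cell marker covariate 16 rose, and with the Xist covariate 15 rose and none fell. Called targets lost with the Xist covariate were Zfp36 (adjusted p = 0.169), Sod2 (0.126), Ccl5 (0.102) and Bcl2l1 (0.147). Zfp36 was also lost under median-ratio scaling (0.323), quantile normalization (0.595) and the fit of only the compared groups (0.226). The same held without any 1 library other than Saline + CTRL replicate 2 (0.0519 to 0.192). Tnf itself, the founding ligand, was at 13.7, 18.1 and 12.1 TPM in Saline + CTRL and 68.7, 52.4 and 47.8 TPM in Saline + MG-REP (1.88 ± 0.36, adjusted p = 3.47e-04). Il12b, a known c-Rel target that encodes a subunit of interleukin 12, was at 1.07, 0.44 and 1.07 TPM in Saline + CTRL and 314, 127 and 128 TPM in Saline + MG-REP (6.56), and the chemokines Cxcl10 (4.26), Cxcl1 (3.65) and Cxcl2 (3.54) rose with it. In MIA + MG-REP against MIA + CTRL, 1 of the 27 rose (3.70%, against 0.555% of all transcripts), Bcl2a1d (1.02 ± 0.24, adjusted p = 0.0453), and the median was 0.33. This call was lost when any 1 of the 6 libraries was left out (adjusted p of 0.0957 to 0.249). It was also lost under median-ratio scaling (0.109), quantile normalization (0.0732), a fit without a mean-variance trend (0.0568) and the Xist covariate (0.255). Tnf was at 14.5, 9.41 and 7.35 TPM in MIA + CTRL and 21.9, 25.04 and 22.4 TPM in MIA + MG-REP (1.12 ± 0.36, adjusted p = 0.298). Il12b was at 3.98, 2.35 and 1.65 TPM in MIA + MG-REP, all below its Saline + MG-REP levels. The interaction was called, as lower in MIA offspring, for 11 of the 27 (40.7%, against 10.5% of all transcripts). Il12b (-5.85), Cxcl1 (-4.50), Cxcl2 (-3.36) and Cxcl10 (-3.12) were the largest. Between the MG-REP groups, 15 of 27 were lower in MIA + MG-REP (55.6%, against 22.0% of all transcripts). Of the border macrophage markers, Pf4 moved with these genes while Cd209f and Cd163 fell in Saline + MG-REP. Pf4 was at 156, 133 and 122 TPM in Saline + CTRL, 901, 422 and 408 TPM in Saline + MG-REP and 69.6, 92.04 and 79.6 TPM in MIA + MG-REP, and its part in the result was not tested.

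**Figure D4:**
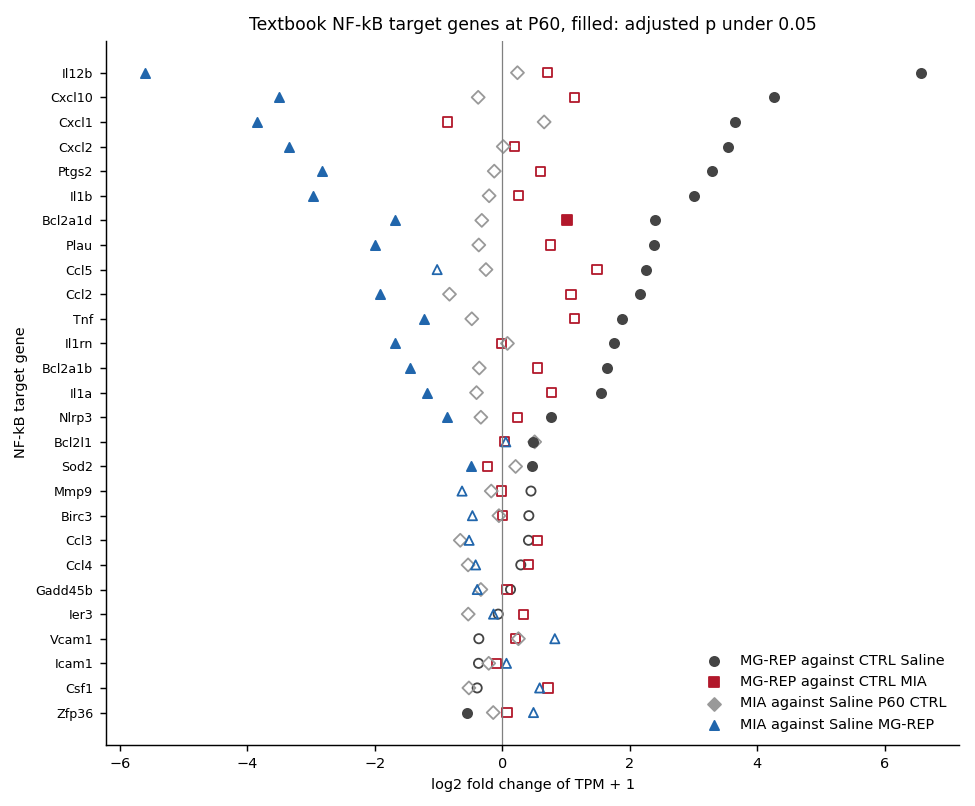
Log2 fold change of TPM + 1 at P60 of 27 textbook NF-kB target genes in 4 comparisons, with filled symbols for an adjusted p under 0.05. Between MG-REP and CTRL, 17 genes have filled black circles to the right of 0 in Saline offspring and 1 gene has a filled red square in MIA offspring, and 15 genes have filled blue triangles to the left of 0 between MIA + MG-REP and Saline + MG-REP. No gray diamond, MIA against Saline on CTRL, is filled.

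Since several members that differed with MG-REP are themselves known NF-kB targets, the promoters of the members were searched for the kB motif, the site bound by NF-kB dimers. The motif was read as 10 bases, GG, then a pair of purines, any 2 bases, a pair of pyrimidines, then CC, which gives the same pattern on either strand, so that neighbouring matches can overlap. Promoter windows of 300 bases (250 before and 50 after the start, RefSeq, GRCm38.p6) matched 37 of 45 genes and were not used for Ikbkb, Nfkb1, Tnfaip8, Tnfrsf10b, Tnfrsf11b, Tnfrsf26, Tnfsf12 and Tnfsf9. A match was in 13 of the 37 genes (35.1%), against 16.2% of 10158 genes of the table with a window. It was in 15 of their 46 windows (32.6%), against 13.99% of 12494 windows of genes in the table and 11.2% of all 32851 windows. By role it was in 3 of 5 IkB genes (Nfkbia, Nfkbid, Nfkbie), 3 of 5 TNF-induced genes (Tnfaip2, Tnfaip3, Tnfaip8l1), 2 of 3 subunit genes (Nfkb2, Rel), 2 of 5 ligands (Ltb, Tnfsf18), 1 of 5 TRAF genes (Traf3) and 2 of 14 receptors (Tnfrsf25, Tnfrsf8). The windows of Tnfsf13b and Tnfrsf17 held none, which says only that these letters are not in those windows. The stretches with matches in 5 members called between MG-REP and CTRL in Saline offspring, with the matches in capitals, are printed to show how the letters of the site vary between 4 genes that rose and Ltb, which fell. They run 5′ to 3′ on the strand of the gene, on chr19:46304673-46304760 (plus) for Nfkb2, chr11:23771026-23771086 (minus) for Rel, chr7:30422156-30422364 (plus) for Nfkbid, chr12:111442612-111442671 (plus) for Tnfaip2 and chr17:35194395-35194454 (plus) for Ltb.
Nfkb2: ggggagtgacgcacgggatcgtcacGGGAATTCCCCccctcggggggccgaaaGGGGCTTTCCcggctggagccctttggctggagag
Rel: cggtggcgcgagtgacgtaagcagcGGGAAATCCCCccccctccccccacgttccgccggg
Nfkbid: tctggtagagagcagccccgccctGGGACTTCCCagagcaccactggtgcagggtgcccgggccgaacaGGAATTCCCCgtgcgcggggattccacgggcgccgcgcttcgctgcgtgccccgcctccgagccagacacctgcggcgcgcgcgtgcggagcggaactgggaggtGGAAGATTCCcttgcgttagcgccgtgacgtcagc
Tnfaip2: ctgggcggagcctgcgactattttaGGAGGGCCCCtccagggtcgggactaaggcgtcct
Ltb: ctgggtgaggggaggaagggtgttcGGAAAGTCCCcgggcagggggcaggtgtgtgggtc

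In Nfkb2 and Rel the first run of capitals is 11 bases long because a pair of matches starts 1 base apart, and in Nfkbid the 3 matches begin 226, 181 and 76 bases before the start. The Tnfaip2 match begins 24 bases before the start and that of Ltb 87 bases before it. Rel, Nfkbid, Tnfaip2 and Nfkb2 (NM_001177369) rose and Ltb fell in Saline + MG-REP, so a match stood in genes of either direction. Windows were matched by gene symbol, so the Nfkb2 window is not tied to the transcript that rose. A match is a description of the letters, not evidence of binding.

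Across development, P7 to P20 was the step with the most calls and from E17 to P7 the inhibitors Nfkbia and Nfkbid rose in both sets of offspring. In Saline offspring from E17 to P7, 10 members were called (20.4%), 9 higher and 1 lower, with 4.32% of all transcripts called. In MIA offspring 4 were called (8.16%), all higher, with 2.39% of all. Nfkbia rose from 1111, 1324 and 1037 TPM at E17 to 2485, 2188 and 2262 TPM at P7 in Saline offspring (1.0 ± 0.18, adjusted p = 0.0016), and from 923, 1434 and 1165 TPM to 2359, 2114 and 1712 TPM in MIA offspring (0.82 ± 0.18, adjusted p = 0.0114). All P7 libraries were above all E17 libraries of the same offspring. Tnfsf10 (1.71 in Saline and 1.40 in MIA offspring) and Nfkbid (0.89 and 0.89) were also called in both, so 3 members were shared, 30% of those called in Saline and 75% of those in MIA offspring. No library is common to the 2 sets.

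Called in Saline and not in MIA offspring at this first step were Tnfsf9 (1.90 ± 0.41, adjusted p = 0.00842), Tnfsf18 (1.49 ± 0.36, adjusted p = 0.0162), Tnfrsf17 (1.31), Tnfsf12 (0.54), both transcripts of A20, Tnfaip3 (NM_009397) at 0.96 and Tnfaip3 (NM_001166402) at 1.0, and, falling, Tnfsf14 (-1.08). Whether the steps differed between Saline and MIA offspring was not tested. Tnfsf9 was at 22.2, 19.2 and 16.2 TPM at E17 and 78.7, 53.1 and 95.7 TPM at P7 in Saline offspring, and at 20.4, 25.8 and 26.2 and 70.1, 51.7 and 89.3 TPM in MIA offspring, where it was higher at P7 in all libraries but not called (adjusted p = 0.0553). Nfkbie (IkB epsilon) was called in MIA offspring (1.26 ± 0.24, adjusted p = 0.00485) at levels of 0.20 to 3.63 TPM. Tnf rose in parallel, from 8.56, 15.6 and 11.1 TPM to 42.1, 34.7 and 35.5 TPM in Saline (1.62 ± 0.36, adjusted p = 0.0109) and from 6.93, 17.5 and 7.01 TPM to 42.3, 30.01 and 29.8 TPM in MIA offspring (1.71 ± 0.36, adjusted p = 0.0108). The Saline count was between 3 and 6 when any 1 of its 6 libraries was left out, and Nfkbia, Tnfsf10 and Tnfsf9 were called throughout, whereas each of the other 7 lost its call without at least 2 of the libraries (adjusted p of up to 0.227, for Tnfsf12). The MIA count was 1 without E17 MIA replicate 1, P7 MIA replicate 1 or P7 MIA replicate 2, when only Nfkbie was left, and 0 in a fit of only the compared groups.

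From P7 to P20, 20 members were called in Saline offspring (40.8%, 8 higher and 12 lower), near the 36.2% of all transcripts, and 20 in MIA offspring (40.8%, 8 higher and 12 lower), near the 35.6% of all. There were 16 members called in both, always in the same direction, which is 80% of either set. The count was 13 in Saline offspring without P7 Saline replicate 2, and 16 to 22 in MIA offspring when 1 library was left out. Called throughout in Saline offspring were Rel, Tnfaip6, Tnfaip8l1, Tnfrsf10b, Tnfrsf14, Tnfrsf8, Tnfsf13b, Tnfsf18 and Traf6, and 15 members in MIA offspring. The summed oligodendrocyte lineage markers were 142 to 249 TPM at P7 and 1046 to 2902 TPM at P20 in Saline offspring, and with the other-cell marker covariate, which includes them, 22 members were called in Saline and 20 in MIA offspring.

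Among the ligands, Tnfsf18 fell most. It was at 35.3, 14.4 and 22.9 TPM at P7 and 2.44, 2.57 and 5.54 TPM at P20 in Saline (-2.46 ± 0.36, adjusted p = 1.02e-05), and fell by 2.12 on the log2 scale in MIA offspring, so that its P7 level was a peak between E17 and P20. Tnfsf13b took the opposite course, from 5.25, 2.22 and 2.31 TPM to 5.93, 8.38 and 8.76 TPM in Saline (1.08 ± 0.29, adjusted p = 0.00562) and from 2.71, 2.06 and 1.46 TPM to 9.57, 7.94 and 9.68 TPM in MIA offspring (1.73 ± 0.29, adjusted p = 6.74e-05). Tnfsf12 rose in both (0.56 and 0.74), in Saline offspring not without P20 Saline replicate 2 (adjusted p = 0.0593). Tnfsf9 rose in Saline offspring (1.05 ± 0.41, adjusted p = 0.047), but P20 Saline replicate 3, at 429.6 TPM, stood apart from the other libraries of that group at 73.9 and 114.2 TPM. Without it the value was 0.31 (adjusted p = 0.469). That library also held the highest Tnf (69.2 TPM), Tnfaip2 (56.4) and Tnfrsf12a (25.5) of the P20 libraries.

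The receptors divided. Tnfrsf14 rose from 29.97, 31.7 and 46.8 TPM to 67.6, 87.5 and 89.7 TPM in Saline (1.17 ± 0.15, adjusted p = 2.56e-06) and from 31.5, 40.1 and 34.9 TPM to 112, 95.5 and 81.7 TPM in MIA offspring (1.41 ± 0.15, adjusted p = 1.62e-07), with all P20 libraries above all P7 libraries. Fas, a death receptor, rose as well (1.09 and 1.54), in Saline offspring not without P7 Saline replicate 2 or 3 or P20 Saline replicate 1 (adjusted p of 0.0895 to 0.152). Falling in both were Tnfrsf10b, the mouse TRAIL receptor (-1.32 and -1.82), Tnfrsf11b (osteoprotegerin, -1.29 and -2.32, in Saline offspring lost when any 1 library was left out, adjusted p of 0.0546 to 0.133), Tnfrsf13c (-0.98 and -1.07) and Tnfrsf8 (CD30, -0.95 and -1.0), of which Tnfrsf13c and Tnfrsf8 stayed under 4 TPM at both ages. In Saline offspring Tnfrsf13c was lost without P7 Saline replicate 1 (adjusted p = 0.153) or P20 Saline replicate 3 (0.0609). Tnfrsf25 (NM_001291010) fell in Saline offspring (-1.03), not without P7 Saline replicate 2 (adjusted p = 0.089) or P20 Saline replicate 3 (0.104). Tnfrsf17 rose in MIA offspring (1.00), where the call was lost without any of 5 of the 6 libraries in turn (adjusted p of up to 0.248). For TRAIL and LIGHT only the receptor was called from P7 to P20. The TRAIL receptor fell while TRAIL (Tnfsf10) was not called (-0.49 and 0.20). The LIGHT receptor rose while LIGHT (Tnfsf14) was not called (-0.23 and -0.55). Whether ligand and receptor differed was not tested.

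Within the cell, subunits fell and Traf5 rose between P7 and P20. Rel fell from 276, 224 and 254 TPM to 122, 158 and 162 TPM in Saline (-0.78 ± 0.20, adjusted p = 0.00434) and from 241, 192 and 239 TPM to 124, 119 and 155 TPM in MIA offspring (-0.75 ± 0.20, adjusted p = 0.00518). Rela fell by less, -0.29 ± 0.11 in Saline and -0.33 ± 0.11 in MIA offspring, with overlapping groups in Saline offspring and calls that were lost without P7 Saline replicate 2 or 3, P20 Saline replicate 1, P7 MIA replicate 1 or P20 MIA replicate 1 or 2 (adjusted p of 0.0582 to 0.193). Nfkb2 (NM_019408) fell in both (-0.57 and -0.79), Nfkb2 (NM_001177369) in MIA offspring (-0.73, lost without P20 MIA replicate 1, adjusted p = 0.0577), and Nfkb1 in neither (0.09, adjusted p = 0.559, and 0.04, adjusted p = 0.811). Traf5 rose (0.43 and 0.64, in Saline offspring not without P7 replicate 2 or 3 or P20 replicate 1 or 2, adjusted p of 0.0655 to 0.152), Traf6 rose in Saline (0.49) at levels under 1 TPM, and Traf4 fell in MIA offspring (-1.64). Nfkbia rose further in MIA offspring (0.67 ± 0.18, adjusted p = 0.0045), and Nfkbil1 fell in Saline offspring (-0.37, lost without 5 of the 6 libraries in turn, adjusted p of up to 0.131). Of the TNF-induced genes, Tnfaip6 (TSG-6, a hyaluronan-binding protein) rose (1.84 and 1.40, in MIA offspring called with all 6 libraries and without P7 MIA replicate 3), while Tnfaip8l1 (-1.91 and -1.62) and Tnfaip2 (-1.22 and -1.53) fell. Of the 27 adaptors and kinases, 3 rose and 7 fell in either set of offspring. That share, 37.0%, lay near the background of 36.2% of all transcripts in Saline and 35.6% in MIA offspring. Ikbke (-1.0 and -1.01) and Ripk1 (-0.67 and -0.76) were among those that fell. Of the 20 brakes, 2 rose and 3 fell in either set (25%, below those shares), with Tnip3 up (1.49 and 1.29) and Nkiras2 down (-0.85 and -0.73) in both. Of the 5 ligands and receptors outside the symbol rule, the nerve growth factor receptor Ngfr (-1.95 and -2.32) and Ltbr, the lymphotoxin receptor (-0.50 and -0.32), fell. Of the 27 target genes, 5 rose and 6 fell in Saline and 5 rose and 8 fell in MIA offspring, 40.7% and 48.1% of the list.

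**Figure D5:**
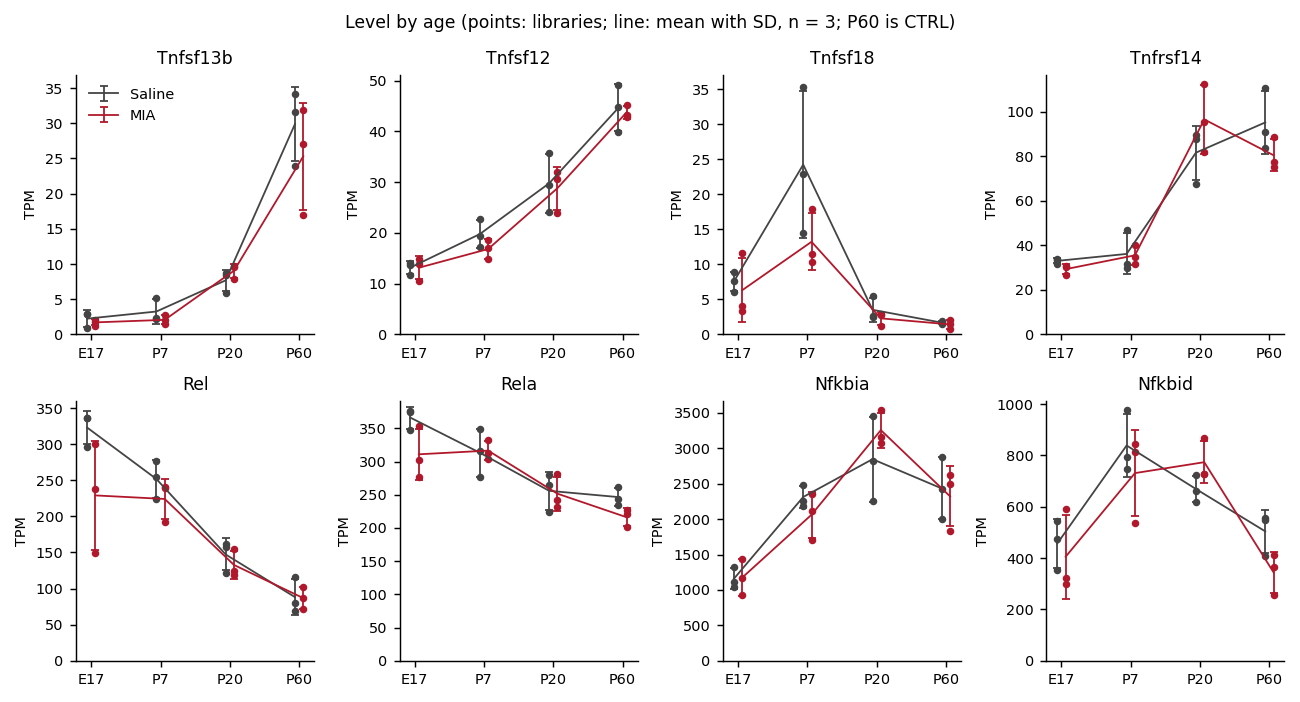
TPM of 8 members at 4 ages in Saline (gray) and MIA (red) offspring, with points for libraries and lines through the means with SD (n = 3, CTRL at P60). Tnfsf13b and Tnfsf12 climb to P60, Tnfsf18 peaks at P7, Rel declines at each age in Saline offspring, and the gray and red points overlap at each age, except for Tnfrsf14 at E17, Nfkbid at P20 and Rela at P60.

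From P20 to P60 on control chow, 7 members were called in Saline (14.3%, 4 higher and 3 lower, with 3.51% of all transcripts) and 4 in MIA offspring (8.16%, 2 higher and 2 lower, with 2.60% of all). Tnfsf13b rose again, from 5.93, 8.38 and 8.76 TPM to 31.6, 23.98 and 34.2 TPM in Saline (1.83 ± 0.29, adjusted p = 9.13e-04) and from 9.57, 7.94 and 9.68 TPM to 17.03, 26.99 and 31.9 TPM in MIA offspring (1.35 ± 0.29, adjusted p = 0.0142), and Tnfsf12 rose in both (0.58 and 0.60). Tnfsf9 fell in both (-1.53 ± 0.41, adjusted p = 0.0372 and -1.63 ± 0.41, adjusted p = 0.0313), in MIA offspring from 129, 147 and 115 TPM to 64.1, 33.4 and 32.3 TPM. These were the 3 shared members, 42.9% of those in Saline and 75% of those in MIA offspring. Without P20 Saline replicate 3 the Tnfsf9 value in Saline was -0.80 (adjusted p = 0.241). In Saline offspring Tnfsf10 (1.24) and Ltb (1.18) rose and Rel (-0.76 ± 0.20, adjusted p = 0.0374) and Tnfrsf12a, the receptor of TWEAK (-1.43), fell, Tnfrsf12a not without P20 Saline replicate 3 (adjusted p = 0.157) or Saline + CTRL replicate 2 (0.133). In MIA offspring Nfkbid fell from 726, 727 and 867 TPM to 414, 364 and 255 TPM (-1.19 ± 0.22, adjusted p = 0.00515), and Tnf fell from 26.9, 23.5 and 32.7 TPM to 14.5, 9.41 and 7.35 TPM (-1.36 ± 0.36, adjusted p = 0.0432). Among the target genes 4 of 27 fell in Saline (14.8%, against 3.51% of all transcripts) and 9 of 27 in MIA offspring (33.3%, against 2.60%), and none rose. These target counts were not recomputed under the alternatives, the Xist covariate among them. Tnfsf13b in Saline and Nfkbid in MIA offspring kept their calls when any 1 library was left out, and every other called member lost its call without at least 2 of the libraries. No call of this step stood under every alternative: the Saline count was 2 to 4 when 1 library was left out and 0 in a fit of only the compared groups, and the MIA count was 1 without P20 MIA replicate 2 or 3 or MIA + CTRL replicate 2 or 3, 2 without P20 MIA replicate 1 and 0 with the Xist covariate. Every P20 library held at least 171.8 TPM of Xist, while replicates 2 and 3 of each CTRL group nearly lacked it. With the Xist covariate the Saline count was 4, and 3 of the 7 Saline calls were kept. Calls over all transcripts then went from 499 to 115 in Saline and from 370 to 111 in MIA offspring.

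Over the 4 ages in Saline offspring, the Tnfsf13b mean went from 2.24 ± 1.19 TPM at E17 to 29.9 ± 5.3 TPM at P60 (mean ± SD, n = 3), Tnfsf12 from 13.2 ± 1.25 to 44.6 ± 4.62 TPM and Rel from 323 ± 22.8 to 88.1 ± 24.6 TPM. In Saline + MG-REP, Tnfsf13b stood above its level at each age and Rel, at 141 ± 13.9 TPM, near its P20 level of 147 ± 22.2 TPM. Called in no comparison were 10 members, Nfkb1, Tnfrsf1a, Tnfrsf13b, Tnfaip8l2, Ikbkb, Traf1, Traf3, Tnfrsf19, Tnfrsf25 (NM_033042) and Nfkbib (NM_001306222). Nfkb1 stayed between 146 and 217 TPM and Tnfrsf1a between 245 and 402 TPM over all 30 libraries.

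MIA and Saline offspring were compared at each age (at P60 on control chow), which is the question the maternal treatment poses, and no member was called at any age. The share of all transcripts called was 0 at E17, 0 at P7, 0 at P20 and 0 at P60 on control chow by limma. At an unadjusted p under 0.05, 6, 1, 1 and 2 members and 585, 335, 457 and 256 of all transcripts differed. At E17, the smallest p-values were those of Tnfrsf8 (0.72 ± 0.25, unadjusted p = 0.0097, adjusted p = 0.754), Rel (-0.55 ± 0.20, unadjusted p = 0.012) and Nfkbie (-0.65 ± 0.24, unadjusted p = 0.0135). Rel was at 336, 297 and 336 TPM in Saline and 149, 300.5 and 237 TPM in MIA offspring at E17, which overlap. At P7 they were those of Tnfsf18 (-0.78 ± 0.36, unadjusted p = 0.0388), Tnfrsf26 (0.30) and Tnfsf13b (-0.42), each with overlapping groups. At P20 Nfkb2 (NM_019408) was 2.55, 2.53 and 2.68 TPM in Saline and 1.47, 2.23 and 1.48 TPM in MIA offspring, without overlap (-0.41 ± 0.17, unadjusted p = 0.0252), followed by Tnfsf10 (0.69) and Tnfrsf12a (-0.70).

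At P60 on control chow Nfkbid was 554, 549.6 and 408 TPM in Saline + CTRL and 414, 364 and 255 TPM in MIA + CTRL, where 413.7 TPM in MIA + CTRL replicate 1 lay above 408 TPM in Saline + CTRL replicate 3 (-0.56 ± 0.22, unadjusted p = 0.0185, adjusted p = 1), followed by Traf6 (0.31) and Nfkbie (-0.47). For the members that differed most after repopulation, the MIA against Saline difference on control chow was -0.34 for Tnfsf9 with a 95% interval of -1.19 to 0.50, -0.22 for Tnfrsf17 (-1.0 to 0.56), -0.26 for Tnfsf13b (-0.87 to 0.34) and -0.08 for Tnfrsf21 (-0.31 to 0.15). None of the lists of adaptors and kinases, brakes, other ligands and receptors or target genes held a called transcript between MIA and Saline offspring at any of the 4 ages, with P60 on control chow.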

How the data were processed

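RNA was sequenced from CD11b+ microglia in 30 libraries of 10 groups, with groups taken from the labels. The deposited table holds TPM per RefSeq transcript. Per the labels and the submitters' processing notes, the authors mapped non-stranded poly(A) libraries to mm10 and counted reads with featureCounts; how TPM was then computed is not given in the sources used here. TPM keeps no depth, so the read number behind a value is unknown. TPM summed to 995494.7 to 998011.9 per library, and log2 values correlated at 0.956 to 0.993 within groups. The labels give no litter, sex or batch for a library, and p-values measure the spread between these libraries.

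All 14225 transcripts were fitted together as log2(TPM + 1), without a filter, with 1 mean per group (limma 3.58.1 with trended variance, R 4.3.3), and 14 contrasts were tested with Benjamini-Hochberg adjustment over all transcripts. The code was tested on simulated data. Members and lists were chosen with earlier results of these data known. Named were the members called, with the 8 largest changes per comparison and direction, fixed pathway nodes, the 10 highest means, the 3 smallest p-values where none was called, and the 4 largest called genes per list. Alternatives were a pseudocount of 0.1, no variance trend, a filter on a mean of 1 TPM, scaling by median ratios or by quantiles, a fit of only the compared groups, log2 Xist as a covariate, a replicate block, an other-cell marker covariate (added after the data were seen) and leaving out each library. Deviations of same-numbered libraries correlated over 0.1 in every pair only for MIA against Saline at P20 (0.238, 0.104 and 0.132). Positions are those of RefSeq for GRCm38.p6, matched by accession for all 49 members. Promoter windows, from the same build, were matched by gene symbol. Columns that assign transcripts to the authors' modules served only as a description. Some marker genes are not reported here.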

Additional observations from a re-analysis of the deposited data

Results flagged for a closer look

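For 4 members the MG-REP effect at P60 differed between MIA and Saline offspring by a test of the difference itself (limma interaction, adjusted over all transcripts). The effect on Tnfsf9 was lower in MIA offspring by -2.29 on the log2 scale (adjusted p = 0.0105). The effect on Tnfrsf17 was higher by 2.46 (adjusted p = 0.00328), that on Tnfrsf21 by 0.80 (adjusted p = 0.00128) and that on Traf5 by 0.73 (adjusted p = 0.0304). The 4 members are 8.16% of the set, and 10.5% of all transcripts were called. Each comparison rests on 3 libraries per group, and the values per library stand in the report.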

How the results depend on the processing

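Direction under the alternatives was followed for the called members and, where a comparison called none, for the 3 with the smallest p-values. None of these changed direction. Of their recomputed values, 1406 stayed on their side of the threshold and 306 were no longer called. Other members given with a value were not covered. The count of called members moved by more than 1.5 times in these cases. Saline E17 to P7 (10 members) gave 6 when scaled by median ratios and 5 when normalized by quantiles. Saline P20 to P60 (7) gave 3 with either scaling, 0 in a fit of only the compared groups and 4 with the Xist covariate. MIA E17 to P7 (4) gave 0 in the fit of only the compared groups and 7 with the other-cell covariate, and MIA P20 to P60 (4) gave 0 with the Xist covariate and 9 with the other-cell covariate. MG-REP against CTRL gave 11 in Saline offspring (19) in the fit of only the compared groups, and 1 in MIA offspring (2) with a pseudocount of 0.1 or the Xist covariate. Where only the compared groups were fitted, fewer libraries set the variance. In the other cases the cause was not tested. When 1 library was left out, the counts ranged from 3 to 6 (Saline E17 to P7), 13 to 19 (Saline P7 to P20), 2 to 4 (Saline P20 to P60), 1 to 6 (MIA E17 to P7), 16 to 22 (MIA P7 to P20), 1 to 3 (MIA P20 to P60), 12 to 17 (MG-REP, Saline), 1 to 2 (MG-REP, MIA), 3 to 5 (interaction) and 6 to 10 (MIA against Saline, MG-REP), and MIA against Saline at each age stayed at 0. The higher share among called members went from 52.6% to 64.3% with quantile normalization for MG-REP in Saline offspring, and from 50% to 33.3% with either scaling for MIA P20 to P60. Among all transcripts the higher share went from 44.3% to 57.5% for MG-REP in Saline offspring with median-ratio scaling. With the replicate number as a block, the count for MIA against Saline at P20 stayed at 0. The labels give no pairing of libraries at any age, only a number. At P20 all 6 libraries correlated best with their own number, in other comparisons 1 to 4 of 6, a hint from the data only. In other comparisons the block lost 6 member calls: Tnfsf12 (adjusted p = 0.0520) in Saline E17 to P7, Tnfsf9 (0.0533) and Nfkbil1 (0.0580) in Saline P7 to P20, Tnfsf10 (0.0513) in Saline P20 to P60, Nfkbib (NM_010908) (0.0579) for MG-REP in Saline offspring and Tnfsf10 (0.0545) for MIA against Saline after MG-REP. It moved no member count by more than 1.5 times. Depth is unknown for TPM, so transcripts under about 1 TPM, such as Traf6 and Tnfrsf8, carry the least certain values.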
